A study of Mus musculus with 3 samples.

Results

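The NKG2 and Klrb1 receptor genes encode C-type lectin-like receptors that natural killer (NK) cells and some T cells carry on their surface. The set held Klrk1, Klrd1, Klrc1, Klrc2, Klre1, Klrg1, Klrb1a, Klrb1b, Klrb1c and Klrb1f, matched by symbol, and all 10 were found among 56980 genes. Their identifiers are ENSMUSG00000030149 for Klrk1, ENSMUSG00000030165 for Klrd1, ENSMUSG00000030167 for Klrc1, ENSMUSG00000052736 for Klrc2, ENSMUSG00000050241 for Klre1, ENSMUSG00000030114 for Klrg1, ENSMUSG00000030361 for Klrb1a, ENSMUSG00000079298 for Klrb1b, ENSMUSG00000030325 for Klrb1c and ENSMUSG00000030154 for Klrb1f. Spleen cells of wild-type (WT) mice were profiled on the 10x Genomics platform, with 1 library for each of 3 groups. The IR+HSO mice received 8.5 Gy of irradiation and HSO, which the series title spells out as hemp seed oil. The IR mice received 8.5 Gy and what the labels call a colvent control, read here as the vehicle, and the control mice were not irradiated. The time after irradiation, the dose and route of HSO and the number of mice per library are not stated in the labels.

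These receptors let a lymphocyte weigh signs of health and stress on the cells it meets. Klrk1 (NKG2D) activates through the adaptor Hcst on binding stress-induced ligands of the Rae1, H60 and Ulbp1 families. Klrd1 (CD94) pairs with Klrc1 (NKG2A), which inhibits, or with Klrc2 (NKG2C), which activates through Tyrobp, and both pairs read the nonclassical molecule H2-T23 (Qa-1). The NKR-P1 receptors of the Klrb1 group read Clec2 proteins, and Klrb1c carries the NK1.1 epitope by which C57BL/6 NK cells are stained.

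Promoter windows are shown for 4 genes with different results: Klre1, lowest in IR+HSO NK cells, Klrb1b, highest there, and Klrk1 and Klrb1c, within 1.5-fold between all libraries in NK cells. Each runs 250 bases before to 50 bases after a RefSeq start site in GRCm38.p6, a different build from the GRCm39 of the counts, at chr6:129577963-129578262 on the plus strand for Klre1, chr6:128826266-128826565 on the minus strand for Klrb1b, chr6:129623815-129624114 on the minus strand for Klrk1 and chr6:128788592-128788891 on the minus strand for Klrb1c. Capitals mark TGTGGT or its reverse complement ACCACA, the core letters bound by Runx factors.
Klre1: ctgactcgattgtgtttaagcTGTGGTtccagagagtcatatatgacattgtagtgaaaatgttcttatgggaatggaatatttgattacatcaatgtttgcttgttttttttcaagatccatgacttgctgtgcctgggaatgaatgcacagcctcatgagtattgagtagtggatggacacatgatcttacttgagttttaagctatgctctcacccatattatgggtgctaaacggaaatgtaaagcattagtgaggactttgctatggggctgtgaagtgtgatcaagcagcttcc
Klrb1b: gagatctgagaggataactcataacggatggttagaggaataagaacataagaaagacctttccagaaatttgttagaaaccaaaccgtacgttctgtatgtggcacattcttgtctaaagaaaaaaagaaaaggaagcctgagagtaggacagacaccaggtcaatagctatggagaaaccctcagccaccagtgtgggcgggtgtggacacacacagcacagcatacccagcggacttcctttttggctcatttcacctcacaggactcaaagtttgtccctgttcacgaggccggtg
Klrk1: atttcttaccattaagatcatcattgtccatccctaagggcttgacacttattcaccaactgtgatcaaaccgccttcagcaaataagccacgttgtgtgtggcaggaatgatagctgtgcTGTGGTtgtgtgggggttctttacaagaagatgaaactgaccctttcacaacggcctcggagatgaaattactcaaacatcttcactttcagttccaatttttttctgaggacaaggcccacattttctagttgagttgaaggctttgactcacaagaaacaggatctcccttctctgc
Klrb1c: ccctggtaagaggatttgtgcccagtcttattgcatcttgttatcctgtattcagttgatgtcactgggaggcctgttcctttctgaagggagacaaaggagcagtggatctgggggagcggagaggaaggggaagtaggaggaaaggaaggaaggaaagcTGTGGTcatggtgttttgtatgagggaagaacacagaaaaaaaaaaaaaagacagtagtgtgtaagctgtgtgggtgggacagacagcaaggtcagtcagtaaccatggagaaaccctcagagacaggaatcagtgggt
RefSeq windows were matched for 8 of the 10 genes, Klrd1 and Klrg1 having none in the table. The letters stood in a window of 6 of those 8 genes (Klrc1, Klrc2, Klrk1, Klre1, Klrb1a and Klrb1c). They stood in 16.8% of all 32851 windows, a share by window, while some genes have more than 1 window. A second Klre1 window, chr6:129578036-129578335, lacked the letters. The letters were 1 of 13 motifs searched and are shown because of the count of genes, so the match is a description only. Of the 13, only the shorter CAAAG stood in more of the genes, in all 8, and in 53.9% of all windows. All 10 genes lie on chromosome 6, in the RefSeq order Klrg1, Klrb1a, Klrb1c, Klrb1b, Klrb1f, Klre1, Klrd1, Klrk1, Klrc2 and Klrc1.

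The libraries held 45636807 UMIs (unique molecular identifiers, counted molecules) in IR+HSO, 50836313 in IR and 47298108 in control. Cells were kept at 500 UMIs or more and under 10% mitochondrial UMIs, which left 10608 cells in IR+HSO, 12866 in IR and 9163 in control. NK cells were those with an Ncr1 UMI and none of Cd3d, Cd3e or Cd3g, and numbered 1046 in IR+HSO, 1531 in IR and 337 in control. In each library these cells had UMIs for all 8 NK markers checked. Ncr1 is among the 8, so its presence was fixed in advance for these cells. Gzma, a granzyme, divided them into Gzma-high cells with 3 or more UMIs (705 in IR+HSO, 1157 in IR and 287 in control) and Gzma-low cells (341 in IR+HSO, 374 in IR and 50 in control), so the Gzma-high share of NK cells was 67.4% in IR+HSO, 75.6% in IR and 85.2% in control. Median UMIs per NK cell were 3688.5 in IR+HSO, 2899 in IR and 4106 in control. Between 34 and 54 cell barcodes were shared by each pair of libraries.

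With 1 library per group no difference between conditions has a replicate check, and no p-value is given. The unit is CPM, the UMIs of a gene per 1000000 UMIs summed over a cell class. Intervals reflect counting error alone. A gene was called higher or lower at a 1.5-fold ratio when it held at least 20 UMIs over both classes and a mean of at least 5 CPM. Levels are compared between libraries or cell classes, never between genes. All comparisons with control share 1 control library.

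Within Gzma-high NK cells, where the mix of the Gzma classes does not enter, Klre1, Klrg1 and Klrd1 stood lowest in IR+HSO and highest in control, and Klrb1b stood highest in IR+HSO. In all, 3 of the 10 genes were called in IR+HSO over IR, against 14.0% of all genes tested in these cells. In IR+HSO over control 4 were called, against 28.1% of all genes, and in IR over control 1, against 20.5%. The other 6 genes, Klrk1, Klrc1, Klrc2, Klrb1a, Klrb1c and Klrb1f, stayed within 1.5-fold in each of the 3 comparisons.

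Klrk1, the NKG2D chain, had 1043 CPM in the IR+HSO library, 1307 in IR and 1322 in control in the Gzma-high cells. Its IR+HSO level was 0.798 (95% interval 0.763 to 0.835) of IR, below it by more than counting error and less than the threshold. Klrd1, the CD94 chain, had 769.8 CPM in the IR+HSO library, 1129 in IR and 1206 in control. IR+HSO was the low library here: its level was 0.682 (95% interval 0.648 to 0.718) of IR, just short of the call, and 0.638 (95% interval 0.598 to 0.681) of control, while IR was 0.936 (95% interval 0.883 to 0.992) of control.

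Klrc1, the inhibitory NKG2A chain, had 242 CPM in the IR+HSO library, 244 in IR and 218 in control, with overlapping intervals in the 3 libraries. Klrc2, the activating NKG2C chain, had 430.2 CPM in the IR+HSO library, 543 in IR and 625 in control, in the same order as its partner Klrd1, with 0.688 (95% interval 0.630 to 0.752) for IR+HSO over control. Klrc1 made up 36.0% of the Klrc1 and Klrc2 UMIs in IR+HSO, 31.0% in IR and 25.8% in control. In the last 500 bases of Klrc1 transcripts, 37.5% of 60-base stretches also occur in another gene of the family, mostly Klrc2, so how reads were divided between this pair is uncertain.

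Klre1, which in mice pairs with the inhibitory Klri1 or the activating Klri2, had 521 CPM in the IR+HSO library, 962 in IR and 1360.1 in control. The 3 intervals did not overlap. The ratio was 0.542 (95% interval 0.511 to 0.576) for IR+HSO over IR, 0.383 (95% interval 0.358 to 0.411) for IR+HSO over control and 0.707 (95% interval 0.668 to 0.748) for IR over control, the last short of the call. Klrg1, an inhibitory receptor for cadherins that marks terminally matured NK cells, had 34.9 CPM in the IR+HSO library, 54.9 in IR and 97.5 in control in the Gzma-high cells. It was the only gene of the 10 called in all 3 comparisons, lower each time, at 0.635 (95% interval 0.496 to 0.808) for IR+HSO over IR, 0.358 (95% interval 0.273 to 0.467) for IR+HSO over control and 0.563 (95% interval 0.450 to 0.707) for IR over control.

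Klrb1b, the inhibitory NKR-P1 receptor whose ligand is Clec2d, was the only one of the 10 called higher in Gzma-high cells, with 152 CPM in the IR+HSO library, 87.2 in IR and 73.3 in control. IR+HSO stood at 1.75 (95% interval 1.51 to 2.02) times IR and 2.08 (95% interval 1.67 to 2.62) times control, and the IR over control ratio of 1.19 (95% interval 0.946 to 1.51) had an interval that held 1. Among the activating NKR-P1 receptors, Klrb1c had 769 CPM in the IR+HSO library, 769.7 in IR and 830.4 in control, a span of under 1.5-fold. Klrb1a had 245 CPM in the IR+HSO library, 275 in IR and 189.7 in control, and Klrb1f had 404 CPM in the IR+HSO library, 393 in IR and 314 in control, both lowest in control.

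Klrb1b made up 16.5% of the Klrb1b and Klrb1c UMIs of Gzma-high cells in IR+HSO, 10.2% in IR and 8.11% in control. Stretches of 60 bases shared with other genes of the family, chiefly Gm44511, took 20.4% of the ends of Klrb1b and 16.2% of those of Klrb1c, so their counts are uncertain in the same way.

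**Figure D1:**
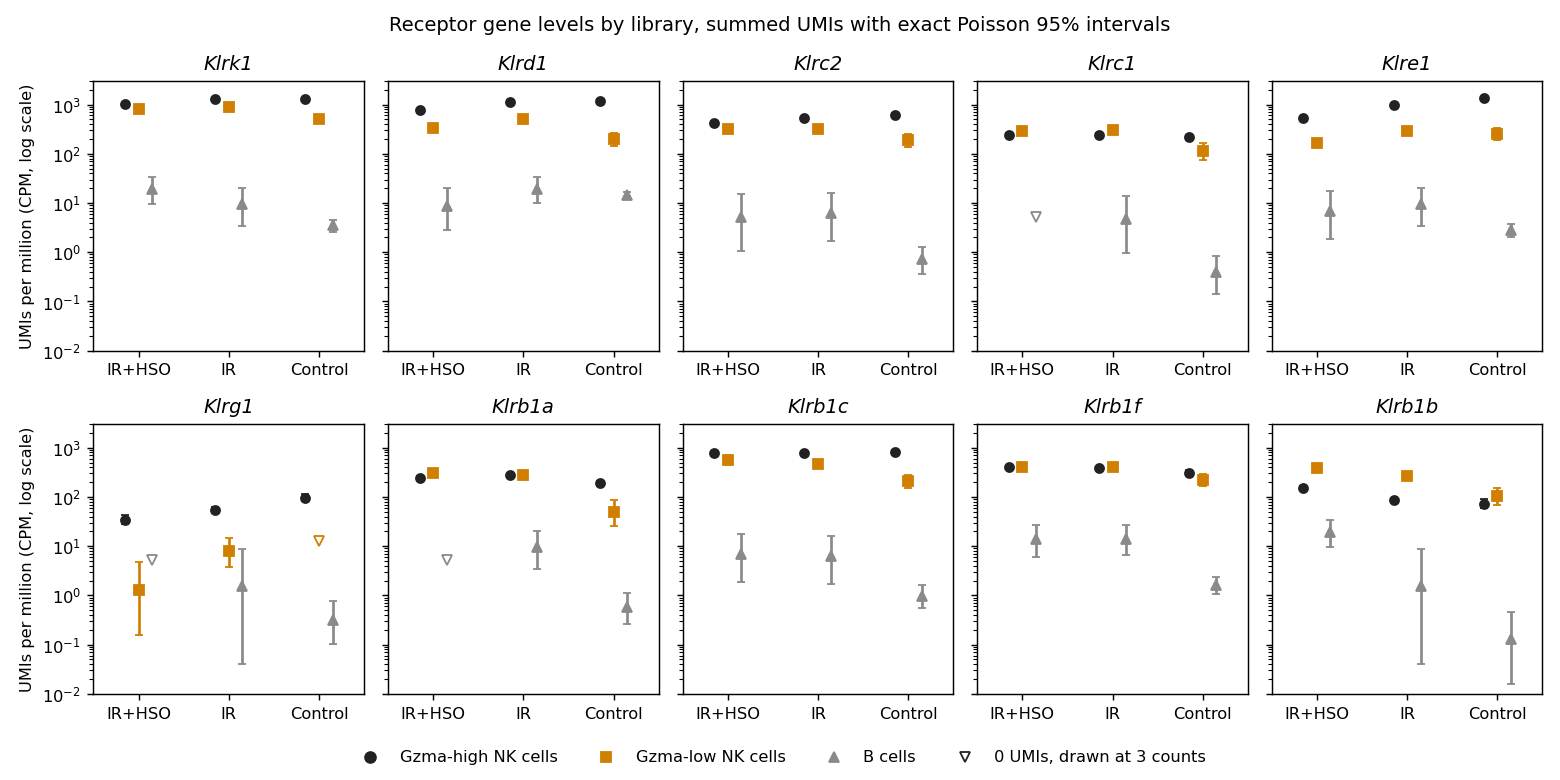
Level of each gene in CPM (log axis) in Gzma-high NK cells (circles), Gzma-low NK cells (squares) and B cells (triangles) of the 3 libraries, with exact Poisson 95% intervals; open symbols mark 0 UMIs and stand at 3 counts. Klre1 and Klrg1 step up across the libraries to their highest level in control Gzma-high cells (1360.1 and 97.5 CPM), while Klrb1b is highest in IR+HSO.

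Counting cells rather than UMIs gave the same order of libraries for Klre1, Klrd1, Klrg1 and Klrb1b. Each cell was thinned to 1000 UMIs, which left out 28 Gzma-high cells in IR+HSO, 85 in IR and 1 in control. A Klre1 UMI was then seen in 39.4% (95% interval 35.7 to 43.2%) of Gzma-high cells in IR+HSO, 59.2% (95% interval 56.2 to 62.2%) in IR and 71.7% (95% interval 66.1 to 76.8%) in control. Klrd1 was seen in 52.4% in IR+HSO, 66.6% in IR and 68.9% in control, so IR+HSO was below both other libraries. Klrg1 was seen in 2.95% in IR+HSO, 5.78% in IR and 11.2% in control. Klrb1b was seen in 14.3% in IR+HSO, 8.96% in IR and 7.34% in control. Klrk1 was seen in 63.1% in IR+HSO, 72.1% in IR and 72.7% in control, Klrc2 in 35.3% in IR+HSO, 41.6% in IR and 46.5% in control, and Klrb1c in 57.3% in IR+HSO, 55.1% in IR and 59.4% in control. Klrc1 stood at 21.1% in IR+HSO, 20.1% in IR and 16.4% in control, Klrb1a at 19.2% in IR+HSO, 21.5% in IR and 18.2% in control, and Klrb1f at 34.7% in IR+HSO, 31.4% in IR and 30.8% in control, each with intervals that overlapped between the libraries. In B cells each gene was seen in at most 2.54% of thinned cells in any library, with median UMIs per B cell of 4115 in IR+HSO, 3016 in IR and 3656 in control, against 3595 in IR+HSO, 2944 in IR and 4096 in control for Gzma-high cells. Before thinning, the share of Gzma-high cells with a Klre1 UMI was 76.2% in IR+HSO, 84.4% in IR and 98.6% in control.

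A thinned Gzma-high cell showed a mean of 3.40 of the 10 genes in IR+HSO, 3.82 in IR and 4.03 in control. Cells with none made up 0.739% in IR+HSO, 1.59% in IR and 0.699% in control. Of 90 ordered pairs of genes, those in which the share with a UMI of the first gene had non-overlapping intervals between cells with and without the second numbered 4 in IR+HSO, 5 in IR and 2 in control, and no pair was among them in more than 1 library. Among those in IR+HSO was Klrc1, which was seen in 35.1% (95% interval 25.6 to 45.4%) of IR+HSO Gzma-high cells with a Klrb1b UMI and in 18.8% (15.7 to 22.2%) of those without. In IR the share was 29.2% with and 19.3% without Klrb1b, and in control 23.8% with and 15.8% without, both with overlapping intervals. That pair was chosen after its values were seen.

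Other markers moved with these genes in Gzma-high cells. The 6 mature NK markers (Itgam, Cx3cr1, S1pr5, Zeb2, Ly6c2 and Cma1) summed to 938 CPM in the IR+HSO library, 1415 in IR and 1999 in control. Of the 6, 5 were lower in IR+HSO over control and the same number in IR over control, with Ly6c2 between, and 4 were lower in IR+HSO over IR. Zeb2, a factor needed for terminal maturation, had 299.7 CPM in IR+HSO, 539.7 in IR and 929 in control. B markers, all 5 of which had UMIs in control, summed to 18.1 CPM in the IR+HSO library, 27.8 in IR and 489.6 in control, with Ms4a1 and Pax5 at 0 in IR+HSO and Pax5 at 0 in IR. Plasma cell markers summed to 1328 CPM in the IR+HSO library, 1247 in IR and 26.4 in control, with Sdc1 and Tnfrsf17 at 0 in control, and 8 pancreas markers to 468 CPM in the IR+HSO library, 2242 in IR and 3.02 in control, with 7 of the 8 at 0 in control. Monocyte or macrophage markers summed to 5.13 CPM in the IR+HSO library, 2.86 in IR and 169 in control. Adgre1 was at 0 in IR+HSO, and Csf1r, Lyz2 and Adgre1 were at 0 in IR. In control 7 of the 287 Gzma-high cells held at least 2 UMIs of myeloid markers. The part of maturation stage, cell admixture or free RNA in the receptor levels, and of admixture in the mature NK marker sums, was not tested. Without the Gzma-high cells that carried markers of other lineages, the ratio of Klre1 was 0.542 for IR+HSO over IR and 0.364 for IR+HSO over control, and that of Klrb1b was 1.75 for IR+HSO over IR and 1.98 for IR+HSO over control.

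Other genes of NK development also differed in Gzma-high cells. Among all genes tested there, 28.1% were called in IR+HSO over control, 14.0% in IR+HSO over IR and 20.5% in IR over control. Of 10 lineage factors, Eomes, Tbx21, Zeb2 and Bach2 were lower and Ikzf2 was higher in IR+HSO over control. Ikzf2 was also higher and Zeb2 lower in IR+HSO over IR, and in IR over control Nfil3 was higher and Zeb2 and Bach2 lower. Eomes, which with Tbx21 specifies NK cells, had 217 CPM in IR+HSO, 309.9 in IR and 407 in control. Of 10 genes of immature NK cells or related innate cells, 9 could be tested. Kit, Il7r, Tnfsf10 and Inpp4b were higher and Cd27 and Itga1 lower in IR+HSO over control. In IR over control Il7r, Tnfsf10 and Inpp4b were higher and Itga1 lower, and Kit and Il7r were higher in IR+HSO over IR. Il7r, the interleukin-7 receptor, had 277 CPM in IR+HSO, 128 in IR and 18.1 in control, the order of Klrb1b. The part of the B and myeloid markers of control Gzma-high cells in the ratios of these genes was not tested.

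The adaptors that carry the signal were measured in the same cells. None of the 3 adaptors (Hcst, Tyrobp and Fcer1g) was called in IR+HSO over IR or in IR over control, and Tyrobp was lower in IR+HSO over control, with 1864 CPM in IR+HSO, 2666 in IR and 2881 in control. Hcst had 514 CPM in IR+HSO, 404 in IR and 426 in control, the other direction. Of 11 kinases and phosphatases downstream, 3 were lower in IR+HSO over control, namely Syk, Lck and Ptpn6, and Plcg1 was higher. Against IR, in the IR+HSO library, Lck was lower and Plcg1 higher, and in IR over control Syk and Ptpn6 were lower. The share called among all genes tested was 28.1% in IR+HSO over control, 14.0% in IR+HSO over IR and 20.5% in IR over control. Ptpn6 (SHP-1), the phosphatase that inhibitory receptors recruit, had 64.9 CPM in IR+HSO, 89.3 in IR and 141 in control. Lck, a kinase at the start of these signals, had 213 CPM in IR+HSO, 360.4 in IR and 495 in control. Of the 287 Gzma-high cells of control, 32 held at least 2 B marker UMIs, against 4 of 705 in IR+HSO and 9 of 1157 in IR. The part of such admixture in the levels of these adaptors, kinases and phosphatases was not tested.

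Of 18 ligand genes listed, 14 were in the features and 4 could be tested in Gzma-high cells: H2-T23, Ulbp1, Clec2d and Clec2i. Ulbp1 had 39.0 CPM in IR+HSO, 28.4 in IR and 16.6 in control and was called higher in both comparisons with control. Clec2d, the ligand of Klrb1b, had 254 CPM in IR+HSO, 246 in IR and 165 in control and was called in IR+HSO over control. H2-T23, read by the Klrd1 pairs, had 209.8 CPM in IR+HSO, 258 in IR and 241 in control and was not called. Ligands on other cells of the spleen were not analysed here.

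**Figure D2:**
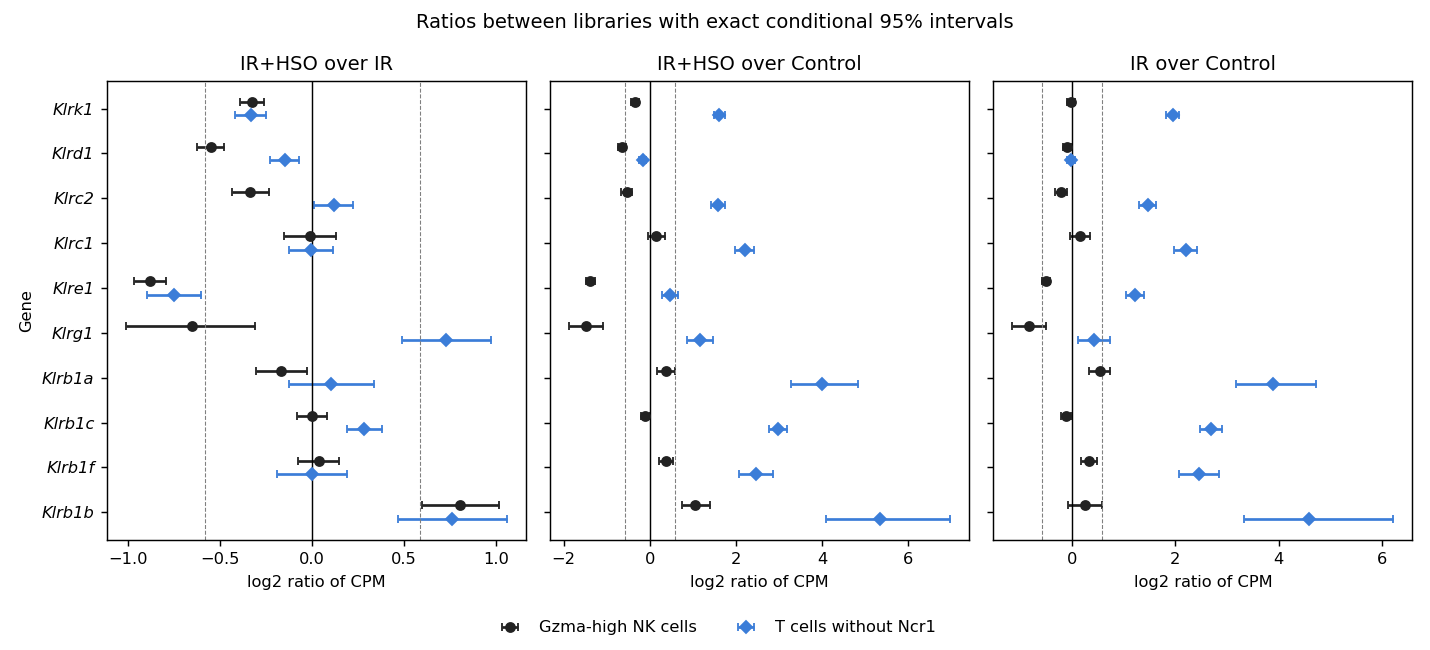
Log2 ratio of CPM for each gene in Gzma-high NK cells (circles) and in T cells without an Ncr1 UMI (diamonds) in the 3 comparisons, with exact conditional 95% intervals; dashed lines mark 1.5-fold. In Gzma-high NK cells Klre1, Klrg1, Klrd1, Klrk1 and Klrc2 lie left of 0 and Klrb1b right of it in IR+HSO over IR, while in T cells most genes lie right of 0 in both comparisons with control.

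The Gzma classes themselves differed in the same genes. Klrb1b was lower in Gzma-high than in Gzma-low cells, with 152 against 389 CPM in IR+HSO and 87.2 against 261 CPM in IR. The ratio was 0.392 (95% interval 0.346 to 0.444) in IR+HSO and 0.334 (95% interval 0.286 to 0.390) in IR. Klre1 and Klrd1 went the other way: Klre1 was 3.09 (95% interval 2.70 to 3.53) times as high in Gzma-high cells of IR+HSO and 3.31 (95% interval 2.98 to 3.70) times in IR, and Klrd1 2.31 times in IR+HSO and 2.27 times in IR. Klrg1 had 34.9 CPM in Gzma-high against 1.31 CPM in Gzma-low cells of IR+HSO, the low class holding 2 UMIs, and 54.9 against 7.84 CPM in IR. All 8 NK markers had UMIs in Gzma-low cells of both libraries, Ncr1 by the gate. They summed to 5066 CPM in Gzma-low against 20812 in Gzma-high cells of IR+HSO, and 6118 against 25380 in IR. That sum includes Gzma, by which the classes were divided. Genes of immature NK cells or related innate cells summed to 3440 CPM in Gzma-low against 1548 in Gzma-high cells of IR+HSO, and 3599 against 1567 in IR. Markers of group 3 innate lymphoid cells summed to 19.6 against 0.342 CPM in IR+HSO and 149.8 against 1.56 in IR. The part of other innate cells in the Gzma-low class was not tested.

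In IR+HSO 4 of the 10 genes were called between the Gzma classes, against 22.2% of all genes, and in IR 6, against 24.7%, Klrc2 and Klrb1c being added on the Gzma-high side. Both added calls were lost in IR with at least 2 Ncr1 UMIs, without cells holding a B marker, with the doublet filter and without cells of other lineages, where the log2 ratio was 0.51 for Klrc2 and 0.45 for Klrb1c. Klrc1, Klrb1a, Klrb1f and Klrk1 were within 1.5-fold between the classes in both irradiated libraries. Without cells of other lineages Klrc1 passed the call in IR, with 252 CPM in Gzma-high and 385 CPM in Gzma-low cells and a log2 ratio of -0.61, and it passed too with at least 2 Ncr1 UMIs (-0.72) and in cells of 2000 to 5000 UMIs (-0.61). Klrb1a passed it on the Gzma-low side in IR+HSO under the last 2 of these settings, at -0.66 with at least 2 Ncr1 UMIs and -0.76 in cells of 2000 to 5000 UMIs, and Klrk1 on the Gzma-high side in IR under 5% mitochondrial UMIs (0.64) and with at least 1000 UMIs (0.62). The control library called 8, against 41.5% of all genes, but 24 of its 50 Gzma-low cells held at least 2 B marker UMIs, and its Gzma-low levels are not read further.

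In Gzma-low cells only Klre1 was called in IR+HSO over IR, with 169 CPM in IR+HSO and 290.2 in IR and a ratio of 0.582 (95% interval 0.495 to 0.685). That was 1 of 9 genes tested, against 20.8% of all genes. Klrd1 at 0.669 (95% interval 0.594 to 0.753) and Klrb1b at 1.49 (95% interval 1.30 to 1.71) were just short of the call, each in the direction it had in Gzma-high cells. Plasma cell markers summed to 795 CPM in Gzma-low cells of IR+HSO and 7274 CPM in IR, pancreas markers to 16858 CPM in IR+HSO and 7099.7 CPM in IR, and B markers to 28.7 CPM in IR+HSO and 175 CPM in IR, and their part in these ratios was not tested. Without the cells that carried markers of other lineages Klrd1 passed the call, with 367 CPM in IR+HSO and 617 CPM in IR and a ratio of 0.595 (95% interval 0.528 to 0.671). In those cells the ratio of Klre1 was 0.517 (95% interval 0.439 to 0.609) and that of Klrb1b 1.34 (95% interval 1.17 to 1.54). Among all Gzma-low cells, Klrk1, Klrc1, Klrc2, Klrb1a, Klrb1c and Klrb1f had ratios between 0.921 and 1.22. A thinned Gzma-low cell showed a mean of 2.73 of the 10 genes in IR+HSO and 2.80 in IR, fewer than the 3.40 and 3.82 of Gzma-high cells.

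Over all NK cells, both Gzma classes together, the shares of the classes also enter. Klrb1b had 234 CPM in the IR+HSO library, 131 in IR and 78.0 in control, a ratio of 2.995 (95% interval 2.48 to 3.64) for IR+HSO over control against 2.08 in Gzma-high cells alone. Klrb1a had 269 CPM in the IR+HSO library, 275 in IR and 168 in control and was called higher in both irradiated libraries, at 1.60 (95% interval 1.40 to 1.83) times control in IR+HSO and 1.63 (95% interval 1.43 to 1.87) in IR. That call was lost in Gzma-high cells. Without the cells holding a B marker UMI it was lost too, with a log2 ratio of 0.44 for IR+HSO over control and 0.53 for IR over control. The doublet filter and the removal of cells with markers of other lineages left only the IR call, at log2 ratios for IR+HSO over control of 0.56 and 0.54. Klre1 had 400.3 CPM in the IR+HSO library, 794 in IR and 1190.1 in control, Klrd1 619.6 CPM in IR+HSO, 971 in IR and 1051 in control, and Klrg1 23.3 CPM in IR+HSO, 43.2 in IR and 82.5 in control. The count of called genes was 4 in IR+HSO over IR, against 12.7% of all genes, 5 in IR+HSO over control, against 28.2%, and 3 in IR over control, against 21.0%. Klrk1, Klrc1, Klrc2, Klrb1c and Klrb1f were called in none of the 3. Klrc2 in IR+HSO over control, at a log2 ratio of -0.51, passed the call at -0.65 without cells holding a B marker, at -0.60 with the doublet filter and at -0.63 without cells of other lineages. The Klrg1 call in IR+HSO over IR was lost in cells of 2000 to 5000 UMIs, where the log2 ratio was -0.45.

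T cells, those with at least 2 UMIs of Cd3d, Cd3e and Cd3g, numbered 6982 in IR+HSO, 8212 in IR and 3731 in control. In them 9 of the 10 genes were higher in IR+HSO over control, against 23.1% of all genes called either way, and 9 in IR over control, against 13.8%, Klrd1 being the exception in both. The median log2 ratio of all genes tested was 0.14 in IR+HSO over control and 0.10 in IR over control. Only Klre1 was called in IR+HSO over IR, lower at 0.542 (95% interval 0.508 to 0.578), against 11.5% of all genes. T cells that also held an Ncr1 UMI made up 7.39% of T cells in IR+HSO, 11.8% in IR and 1.63% in control, and had median UMIs of 6058 in IR+HSO, 4976 in IR and 6736 in control, against 3475 in IR+HSO, 3473.5 in IR and 5472 in control in the T cells without. Droplets with a T and an NK cell cannot be told apart from T cells expressing Ncr1, so the T cells below are those without it.

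The T cells with Ncr1 held every receptor at a sizeable part of the NK level. Across the 10 genes their level was 33.4 to 67.6% of that in NK cells of the same library in IR+HSO and 35.7 to 56.8% in IR. Klre1 had 212 CPM in the IR+HSO library, 325 in IR and 482 in control in them, and Klrb1b had 78.0 CPM in the IR+HSO library, 46.6 in IR and 32.4 in control, the orders seen in NK cells. Klrd1 had 419 CPM in the IR+HSO library, 456 in IR and 418 in control, a span of under 1.5-fold. Control held 61 such cells.

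In T cells without Ncr1, Klrk1 had 77.0 CPM in the IR+HSO library, 97.0 in IR and 25.1 in control. Klrb1c had 72.9 CPM in the IR+HSO library, 59.8 in IR and 9.24 in control, control again the lowest. Klrc1 had 40.0 CPM in the IR+HSO library, 40.2 in IR and 8.70 in control, and Klrc2 53.8 CPM in IR+HSO, 49.6 in IR and 17.9 in control, both about level in both irradiated libraries. Klrd1 differed by under 1.5-fold, at 92.3 CPM in the IR+HSO library, 102 in IR and 103 in control. Klre1 had 21.7 CPM in the IR+HSO library, 36.6 in IR and 15.7 in control, with IR the highest.

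The ratios over control were 3.06 (95% interval 2.79 to 3.37) for IR+HSO and 3.86 (95% interval 3.53 to 4.23) for IR in Klrk1, and 7.89 (95% interval 6.83 to 9.15) for IR+HSO and 6.48 (95% interval 5.61 to 7.52) for IR in Klrb1c. For Klrc1 they were 4.597 in IR+HSO and 4.61 in IR, and for Klrd1 0.893 in IR+HSO and 0.990 in IR. In all 7 of 9 tested genes were higher in IR+HSO over control, against 17.2% of all genes, and 7 of 9 in IR over control, against 9.89%. Klrb1b held too few UMIs in control, 5, to be tested. The 8 NK markers, of which Ncr1 is at 0 by the gate and the other 7 had UMIs, summed to 1338 CPM in T cells without Ncr1 in IR+HSO, 1381 in IR and 612 in control, and their part in the receptor levels was not tested. In IR+HSO over IR, Klre1 was lower at 0.594 (95% interval 0.536 to 0.658), and Klrg1 and Klrb1b were higher at 1.66 and 1.70, against 4.74% of all genes lower and 7.21% higher.

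B cells, which should lack these receptors, gave the level that free RNA or misassigned droplets can reach. It lay between 0 and 19.1 CPM over the 10 genes in IR+HSO (93 cells), between 1.58 and 19.0 CPM in IR (120 cells) and between 0.130 and 14.5 CPM in control (3677 cells). Klrb1f in T cells without Ncr1 had 16.2 CPM against 13.9 (95% interval 5.98 to 27.3) CPM in B cells of IR+HSO, and 16.2 against 14.2 (95% interval 6.503 to 27.0) in IR, so it is read as background there, although it is among the genes counted as higher over control. Klrb1a in IR, at 10.6 CPM against 9.48 (95% interval 3.48 to 20.6) in B cells, and Klrb1b in IR+HSO, at 9.06 CPM against 19.1 (95% interval 9.51 to 34.1), are read the same way, and Klrb1a too is among those counted. Klrb1b and Klrg1 in IR, at 5.34 and 8.08 CPM, were within the B cell intervals too, whose upper ends were both 8.80 CPM. That holds for Klrg1 over all T cells without Ncr1, while its level in Foxp3-positive T cells of IR, given below, was above that end. Klrk1, Klrd1, Klrc1, Klrc2, Klre1 and Klrb1c in T cells without Ncr1 stood above the B cell intervals in all 3 libraries.

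The T cell subsets without Ncr1 were not alike. In CD8 T cells, Klrd1 had 212 CPM in the IR+HSO library, 218 in IR and 193 in control, within 1.5-fold, while Klrk1 had 85.8 CPM in the IR+HSO library, 113 in IR and 25.6 in control and Klrc1 57.8 CPM in IR+HSO, 49.0 in IR and 8.61 in control. Of 8 genes tested in CD8 T cells, 7 were higher in IR+HSO over control, against 18.1% of all genes, and 7 in IR over control, against 13.3%. These counts were not set against the B cell levels and may include genes at background. In IR+HSO over IR only Klre1 was called, at 0.476 (95% interval 0.373 to 0.604), against 16.1% of all genes. After thinning, Klrd1 was seen in 13.9% of CD8 T cells in IR+HSO, 16.9% in IR and 18.3% in control, against a B cell share of 1.09% in IR+HSO, 2.54% in IR and 0.847% in control. CD8 T cells were 9.58% of T cells in IR+HSO, 8.61% in IR and 34.9% in control, and that mix enters the level over all T cells.

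T cells with Trdc, the constant region of the delta chain, had the highest levels of Klrc1 and Klrc2 among the CD8, CD4, Trdc and Foxp3-positive T cells without Ncr1, in each library. Klrc1 had 129.6 CPM in the IR+HSO library, 102 in IR and 56.2 in control in them, and Klrc2 had 162 CPM in the IR+HSO library, 109 in IR and 102 in control. Klrb1c had 159 CPM in the IR+HSO library, 96.6 in IR and 28.1 in control, with a ratio of 1.64 (95% interval 1.41 to 1.92) for IR+HSO over IR. In that comparison 4 of 9 genes were higher and Klre1 was lower, against 16.9% of all genes called either way. Klre1 had 41.4 CPM in the IR+HSO library, 63.7 in IR and 87.4 in control, the order seen in Gzma-high NK cells. In IR+HSO over control 7 of 9 genes tested were higher and Klre1 was lower, against 28.8% of all genes, and in IR over control 5 of 8 were higher, against 14.6%. Control held 172 such cells. Gzma-high NK cells held gamma-delta markers (Trdc and Trgc1) as well, summing to 69.0 CPM in IR+HSO, 96.0 in IR and 102 in control. That sum was all Trdc in control. In T cells without Ncr1 the sums were 97.4 CPM in IR+HSO, 118 in IR and 46.1 in control. The part of NK RNA in the receptor levels of T cells with Trdc was not tested. The counts of called genes were not set against the B cell levels and may include genes at background.

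In CD4 T cells without Ncr1, 9 of the 10 genes were at a small part of the level in NK cells of their own library. Their levels were 2.64 to 5.41% of the NK level in IR+HSO, 2.71 to 8.31% in IR and 0 to 2.37% in control. As a share of the cells kept, NK cells were 9.86% in IR+HSO, 11.9% in IR and 3.68% in control. Klrg1 stood above these ranges of the NK level, at 84.5% in IR+HSO, 28.4% in IR and 7.90% in control. Foxp3-positive cells were not left out of the CD4 class. How much of the CD4 T cell signal came from NK RNA was not tested. By CPM, Klrk1 had 41.5 CPM in the IR+HSO library, 47.6 in IR and 11.5 in control in CD4 T cells, and 7 of 8 genes tested were higher in IR+HSO over control, against 18.7% of all genes, and 8 of 8 in IR over control, against 10.8%. Between IR+HSO and IR 5 of 10 were called, against 16.2% of all genes, Klrc1, Klrd1 and Klre1 lower and Klrg1 and Klrb1b higher. Klrb1b, at 8.39 CPM in IR+HSO and 4.75 in IR, and Klre1 in IR+HSO, at 14.0 CPM against a B cell interval of 1.89 to 17.7, were no higher than the B cell intervals and are read as background. The same holds for Klrb1f in both irradiated libraries, at 10.7 CPM in IR+HSO and 12.2 in IR, so not all of the genes counted as higher over control stood above background.

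**Figure D3:**
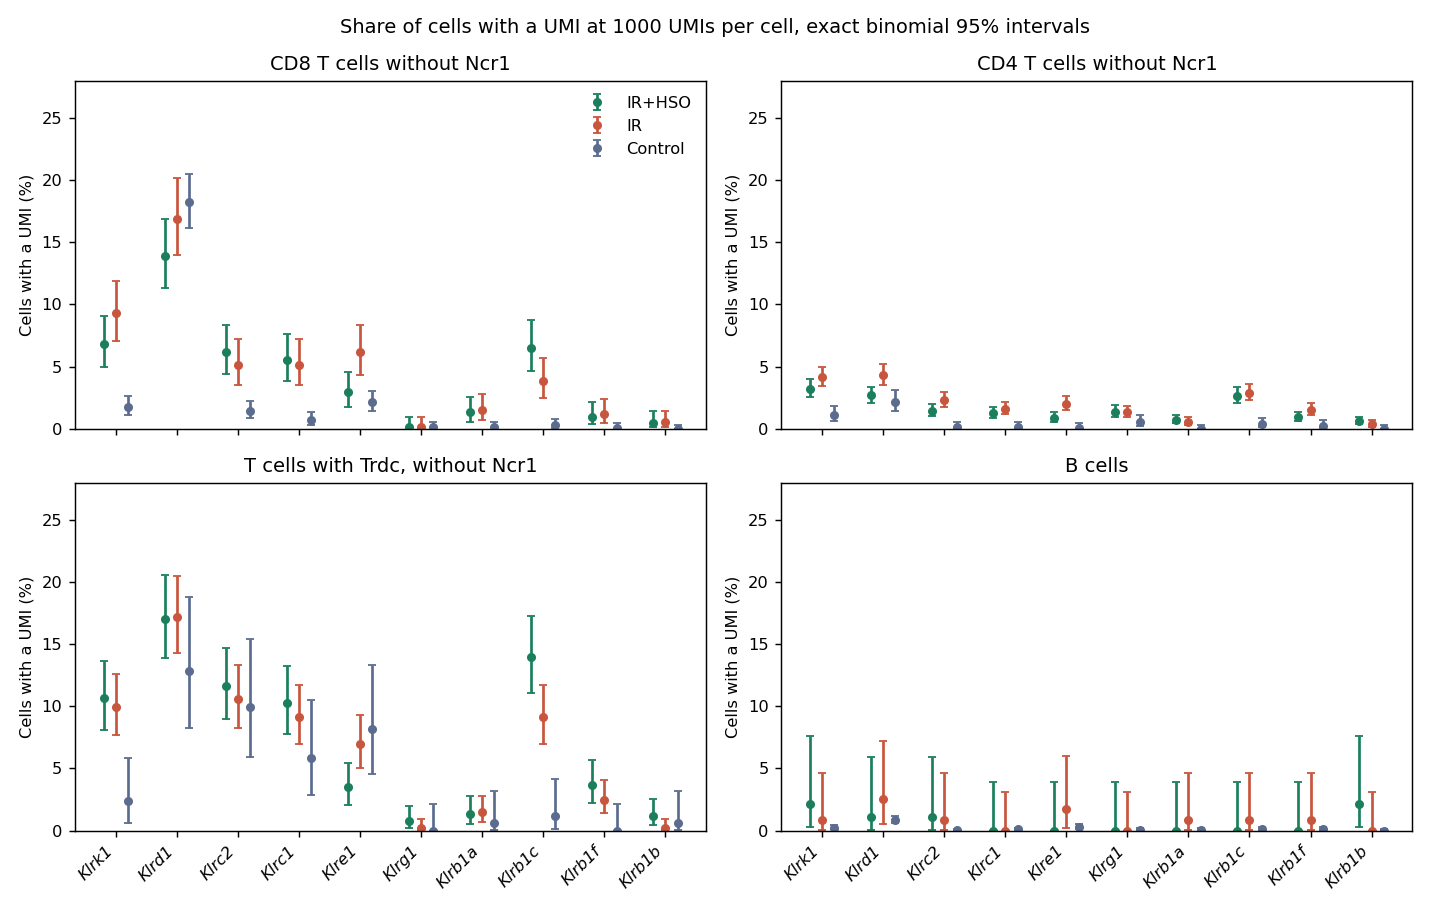
Share of cells (%) with a UMI of each gene after thinning to 1000 UMIs per cell, in CD8 T cells, CD4 T cells and T cells with Trdc, all without Ncr1, and in B cells, by library, with exact binomial 95% intervals. Klrd1 in CD8 T cells is similar in the 3 libraries (13.9% in IR+HSO, 16.9% in IR and 18.3% in control), whereas Klrk1 and Klrb1c are lowest in control in both CD8 T cells and T cells with Trdc.

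Klrg1 in T cells went with Foxp3, the defining factor of regulatory T cells. In Foxp3-positive T cells Klrg1 had 40.5 CPM in the IR+HSO library, 41.9 in IR and 56.7 in control, against 4.58 CPM in IR+HSO, 4.92 in IR and 1.75 in control in T cells without Foxp3. The Foxp3-positive level differed by under 1.5-fold between libraries, with 0.967 (95% interval 0.802 to 1.17) for IR+HSO over IR and 0.715 (95% interval 0.569 to 0.905) for IR+HSO over control. Foxp3-positive cells were 22.2% of T cells in IR+HSO, 10.6% in IR and 6.59% in control. Klrg1 over T cells without Ncr1 had 13.4 CPM in the IR+HSO library, 8.08 in IR and 5.98 in control, the same order as that share. Leaving out Ncr1-positive cells, the Foxp3-positive level was 41.8 CPM in IR+HSO, 41.8 in IR and 58.2 in control, while the other 9 genes stood at 2.39 to 5.95% of the NK level in IR+HSO, 2.23 to 5.43% in IR and 0 to 4.71% in control.

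**Figure D4:**
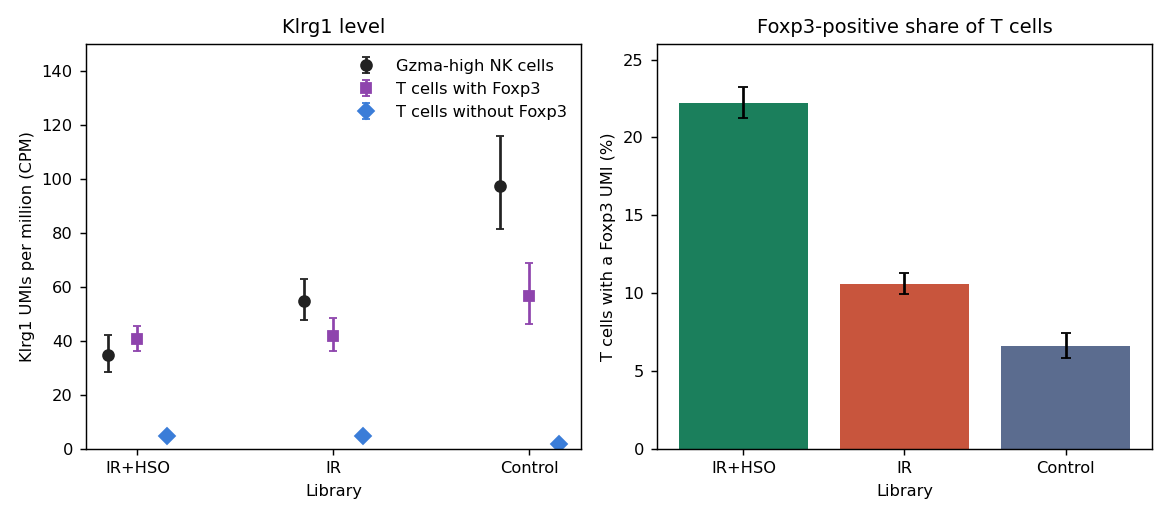
Left, Klrg1 level in CPM in Gzma-high NK cells, T cells with Foxp3 and T cells without Foxp3 by library, with exact Poisson 95% intervals; right, share of T cells (%) with a Foxp3 UMI, with exact binomial 95% intervals. In Gzma-high NK cells Klrg1 is lowest in IR+HSO at 34.9 CPM, while the Foxp3-positive share of T cells is highest there at 22.2%.

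Myeloid cells of the control spleen held Klrd1 and Klrk1. Dendritic cells (91 cells) had 158 (95% interval 131 to 189) CPM of Klrd1 and monocytes or macrophages (110 cells) had 162 (95% interval 135 to 193) CPM, against 14.5 CPM in control B cells. Klrk1 had 55.4 CPM in dendritic cells and 34.2 CPM in monocytes or macrophages, against 3.50 CPM in B cells. After thinning, Klrd1 was seen in 10.0% of dendritic cells, and Klrc1, Klrc2 and Klrg1 in none of 90, which allows a share of cells with a UMI of up to 3.33% (3 cells of the total). In IR+HSO and IR these classes held under 50 cells each and were not measured.

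The genes most like a receptor were found by Pearson's r of log2(CPM + 1) across 22 profiles of cell class and library, among 9019 genes at 20 CPM or more in some profile. Nearest to Klrk1 were Arsb (r = 0.967), Ccl5 (0.967) and Il12rb2 (0.965). Those nearest to Klrc1 were Xcl1 (r = 0.977), Klra7 (0.972) and Arl4d (0.969), and to Klrc2 Klra7 (r = 0.980), Samd3 (0.970) and Itga2 (0.969). Several are NK genes: Xcl1 encodes a chemokine of NK cells, and the Klra genes encode Ly49 receptors. For Klre1 the nearest were Klra9 (r = 0.976), Klra4 (0.973) and Cd200r4 (0.967). For Klrg1 they were Gzma (r = 0.874), Cma1 (0.862) and Kcnj8 (0.856), and Gzma is the gene that divided the NK classes.

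In the Klrb1 group, the genes nearest to Klrb1a were Arhgef5 (r = 0.973), Cd200r4 (0.972) and Klra4 (0.956), and to Klrb1c Fasl (r = 0.978), Klra7 (0.971) and Itga2 (0.971). Fasl encodes a death ligand of cytotoxic cells. Those nearest to Klrb1b were Cpne7 (r = 0.944), Clnk (0.938) and Bicd1 (0.928), and to Klrb1f Mag (r = 0.952), Trdv4 (0.951) and Klri2 (0.949). The profiles share libraries and depth, so these are descriptions without a test.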

How the data were processed

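Spleen cells in 3 libraries were sequenced on the 10x Genomics platform. The deposited matrices hold raw UMI counts per gene and barcode. Per the file headers they come from Cell Ranger 7.0.1, and the submitters' processing notes name GRCm39. Barcodes with at least 500 UMIs and under 10% mitochondrial UMIs were kept. B cells had at least 2 B marker UMIs, plasma cells, dendritic cells and monocytes or macrophages at least 2 UMIs of their markers, and none of these held Ncr1 or Cd3 UMIs. T subsets needed 1 UMI of Cd8a or Cd8b1, Cd4, Trdc or Foxp3. CD8 T cells had no Cd4 UMI and CD4 T cells no Cd8a or Cd8b1 UMI. Cells with Trdc or Foxp3 could also be in the CD8 or CD4 class. UMIs of each class were summed and scaled to CPM of all UMIs of that class. Ratios carry exact conditional intervals, levels exact Poisson intervals and shares exact Clopper-Pearson intervals, all at 95%. A ratio of 1.5-fold was the call; counts of 0 were set to 3 in ratios. Shares used cells thinned to 1000 UMIs, with 1500 and no thinning as alternatives. No doublet caller was run; a filter on B marker UMIs and on the deepest 5% of cells was an alternative. The ratio, its interval and the 1.5-fold call were tried on simulated Poisson counts, with counts of 0 set to 1 there. Such counts hold no spread between cells, mice or libraries. Named genes were the 10 receptors, the 3 genes most like each (those for Klrd1 are not reported here), and genes of the pathway and marker lists. The receptors and lists were chosen with earlier results of these data known. Python 3.11.15, NumPy 2.4.6, SciPy 1.17.1, pandas 2.3.3 and matplotlib 3.10.9 were used.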

Additional observations from a re-analysis of the deposited data

Results flagged for a closer look

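Klrd1 went opposite ways in the Gzma classes of NK cells for IR+HSO over control, with a log2 ratio of -0.65 in Gzma-high cells and 0.77 in Gzma-low cells. The difference between the classes was not tested, and 24 of the 50 Gzma-low cells of control held at least 2 B marker UMIs. In control the log2 ratio of Klrd1 in Gzma-high over Gzma-low cells was 2.62. Without cells of other lineages, which left 23 Gzma-low cells, it was 1.14. Over all cells of the 2 classes it was 1.21 in IR+HSO and 1.18 in IR. The Gzma-low value against control is therefore not read further.

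Klrg1 was lower in NK cells and higher in T cells without Ncr1. The log2 ratio for IR+HSO over control was -1.82 in NK cells and 1.16 in T cells, and for IR+HSO over IR it was -0.89 in NK cells and 0.73 in T cells, the NK value being -0.45 in cells of 2000 to 5000 UMIs. These differences between cell classes were not tested, and the Foxp3-positive share of T cells was 22.2% in IR+HSO, 10.6% in IR and 6.59% in control.

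Barcodes outside the cell filter, all with 10% or more mitochondrial UMIs, also held receptor UMIs. The 10 genes summed to 971 CPM in 2102 such barcodes of IR+HSO and to 1607 CPM in 643 of IR, against 336 CPM in 357 of control. In the cells kept the sums were 1169.6 CPM in IR+HSO, 1386 in IR and 356 in control.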

How the results depend on the processing

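Of 1371 values of single genes under the alternative settings, 1055 lay within the counting interval of the reported value, 311 lay outside it and 5 turned a called value round. At a 2-fold threshold the count of genes called was 0 for IR+HSO over IR, 3 for IR+HSO over control and 0 for IR over control in NK cells, and 0 for IR+HSO over IR in T cells. In Gzma-high NK cells alone, an alternative added after the data were seen, 1 gene was called for IR over control. For T cells in IR+HSO over IR, where 1 gene was called, the count was 3 with at least 3 Cd3 UMIs, 3 without Ncr1, 3 in cells of 2000 to 5000 UMIs, 2 under 5% mitochondrial UMIs, 2 with totals that left out technical genes, 2 with the mean of CPM per cell and 2 after subtracting the B cell level. In cells of 2000 to 5000 UMIs the log2 ratio of Klrg1 in T cells for IR over control was -0.022, and that of Klre1 for IR+HSO over control was -0.37. Klrc1 in Gzma-high over Gzma-low NK cells of control was -0.31 with at least 2 Ncr1 UMIs, -0.024 without cells holding B markers and -0.10 without cells of other lineages. The causes of these shifts were not tested. Leaving out NK cells with a B marker ended the calls of Klrb1a and Klrb1b in NK cells for IR over control, at log2 ratios of 0.53 and 0.57, and that of Klrb1a for IR+HSO over control, at 0.44. Klrd1 for IR+HSO over IR in NK cells ended at -0.55 with totals without technical genes, and Klrg1 at -0.45 in cells of 2000 to 5000 UMIs. Klre1 for IR over control in NK cells, at -0.58 just short of the call, passed it at -0.61 with at least 2 Ncr1 UMIs or with the mean of CPM per cell, at -0.60 after subtracting the B cell level, at -0.72 without cells holding B markers, and at -0.74 in cells of 2000 to 5000 UMIs, with the doublet filter or without cells of other lineages. Leaving out a replicate was not possible with 1 library per group. No paired analysis was possible because each group has 1 library. Depth limits Klrg1 in Gzma-low cells, with 2 UMIs in IR+HSO, 10 in IR and 0 in control.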
